A study of Mus musculus with 20 samples.

Results

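Ceacam12, Ceacam1 and Ceacam20 are 3 mouse genes of the carcinoembryonic antigen (CEA) family. They were matched by symbol among the 12701 genes of a proximal colon (PC) count table, and all 3 were found. The 3 genes were chosen by results already known from these same libraries, namely their differences between diets. Their levels and fold changes across diets are therefore a description and carry no p value.

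C57BL/6 mice, an inbred laboratory strain, entered the study at 3 weeks of age and spent 6 weeks on the TWD (Total Western Diet, which mimics human intake in the United States). They then ate the TWD alone (0% RPS) or with 2, 5 or 10% raw potato starch (RPS, a resistant starch) for 3 more weeks, so all 4 groups shared the TWD. Each diet had 5 libraries from bulk PC tissue, which holds epithelium together with muscle, vessel and immune cells. In bulk tissue, fewer cells of a type and less RNA per cell cannot be told apart. The labels number the libraries without saying that each number is a separate mouse, so p values measure the spread between libraries. The libraries held 20581013 to 35083751 counts, with a median of 26354926.5.

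CEACAM proteins are cell surface or secreted glycoproteins built from immunoglobulin domains. On epithelial cells, several of them bind one another across cell contacts, and some are docking sites for bacteria. Ceacam1 encodes the best known member, a receptor with an inhibitory tail that recruits the phosphatase encoded by Ptpn6. Ceacam20 encodes a microvillus protein of intestinal epithelial cells with an activating tail, which is dephosphorylated by the product of Ptprh. Ceacam12 belongs to a rodent branch of the family.

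The annotation placed all 3 genes on chromosome 7 (GRCm39, GENCODE M39). Ceacam12 (ENSMUSG00000030366) lay on the plus strand at chr7:17799854-17811911 and had 4 exons in its canonical transcript. Ceacam20 (ENSMUSG00000070777) lay on the plus strand at chr7:19699337-19725029 and had 12 exons. Ceacam1 (ENSMUSG00000074272) lay on the minus strand at chr7:25161128-25177257, had 8 exons and was annotated with 25 transcripts. The counts were per gene and did not separate the Ceacam1 isoforms. Of 16 Ceacam genes in the annotation, the table used here listed 6. The other 3 were Ceacam10 and Ceacam2, on either side of Ceacam1, and Ceacam18.

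The sequences before an annotated start site are printed for the members and Ceacam10. They are the 250 bases upstream of 1 start per gene, from RefSeq on GRCm38.p6, a different build from the gene coordinates above. Ceacam12 and Ceacam10 had 2 entries each, of which the first was used. The windows were chr7:18065679-18065928 for Ceacam12, chr7:19965162-19965411 for Ceacam20, chr7:25477626-25477875 on the minus strand for Ceacam1, and chr7:24776917-24777166 for Ceacam10. Capitals mark matches to any of 7 short motifs.
Ceacam12: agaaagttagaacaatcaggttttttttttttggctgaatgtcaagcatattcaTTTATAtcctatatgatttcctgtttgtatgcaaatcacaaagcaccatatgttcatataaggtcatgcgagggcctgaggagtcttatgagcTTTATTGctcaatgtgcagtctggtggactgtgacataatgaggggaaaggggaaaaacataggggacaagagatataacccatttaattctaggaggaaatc
Ceacam20: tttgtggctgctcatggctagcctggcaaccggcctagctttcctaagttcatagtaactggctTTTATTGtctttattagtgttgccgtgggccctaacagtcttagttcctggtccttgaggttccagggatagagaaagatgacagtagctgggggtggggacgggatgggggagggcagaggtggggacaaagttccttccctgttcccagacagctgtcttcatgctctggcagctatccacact
Ceacam1: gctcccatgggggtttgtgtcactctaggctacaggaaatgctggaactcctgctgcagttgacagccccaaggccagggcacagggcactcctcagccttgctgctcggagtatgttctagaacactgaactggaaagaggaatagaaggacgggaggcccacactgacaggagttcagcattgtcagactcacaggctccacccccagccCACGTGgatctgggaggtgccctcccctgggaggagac
Ceacam10: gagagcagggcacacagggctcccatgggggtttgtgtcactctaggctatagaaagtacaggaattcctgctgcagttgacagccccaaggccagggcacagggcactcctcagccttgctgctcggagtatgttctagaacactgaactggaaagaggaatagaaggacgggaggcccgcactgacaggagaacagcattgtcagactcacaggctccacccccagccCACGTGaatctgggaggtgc

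The Ceacam1 and Ceacam10 windows shared 222 of 268 aligned positions, an identity of 82.8%, with an unbroken identical run of 114 bases. Ceacam12 and Ceacam20 had no such counterpart, and the identities among the 3 members were 45.5 to 47.9%. All remaining pairs of the 6 family genes had 46.2 to 52.0%, so the identities among the members mark no closer relation. The windows were aligned end to end, which misses likeness at shifted positions. Ceacam2 shared an identical run of 21 bases with Ceacam1 and of 20 bases with Ceacam10, at different distances from the start sites. The low identities of these pairs therefore do not show that they are unrelated. Among the members, the longest identical runs were 7 to 8 bases. The 7 motifs were searched on both strands. They were the interferon-stimulated response element core GAAANNGAA (in 7.13% of 32851 promoter windows of this length), the gamma interferon activation site TTCNNNGAA (7.02%), the USF E-box CACGTG (6.02%), the GC box GGGCGG (32.7%), the CDX motif TTTATNG (9.81%), the TATA box TATAAA (12.4%) and the AP-1 motif TGANTCA (6.75%). The CDX and TATA box letters can overlap. The USF E-box was found in Ceacam1, starting 38 bases before the start site, and in Ceacam10, starting 20 bases before it. The CDX motif was found in Ceacam12 and Ceacam20, and the TATA box letters in Ceacam12 on the opposite strand. No other motif of the 7 was found in the 4 windows printed here, which says only that these letters are absent from them.

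The members stood at very different levels. Levels are compared between genes as CPM (counts scaled to the library total) per kilobase of canonical transcript. On this scale, Ceacam1 averaged 705 over the 20 libraries and ranked 63rd of 12682 genes. Ceacam20 averaged 41.4 and ranked 1649th. Ceacam12 averaged 1.99 and ranked 11148th, among the least expressed genes of the table. The highest Ceacam12 library (5.67) was below the lowest Ceacam20 library (32.5), and the highest Ceacam20 library (56.7) was below the lowest Ceacam1 library (518). The order of the 3 members was therefore the same in every library. Ceacam1 alone took 0.201 to 0.38% of all counts in a library, whereas Ceacam12 had 27 to 248 counts. All libraries of the 3 genes were far above a detection floor of 3 counts.

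**Figure D1:**
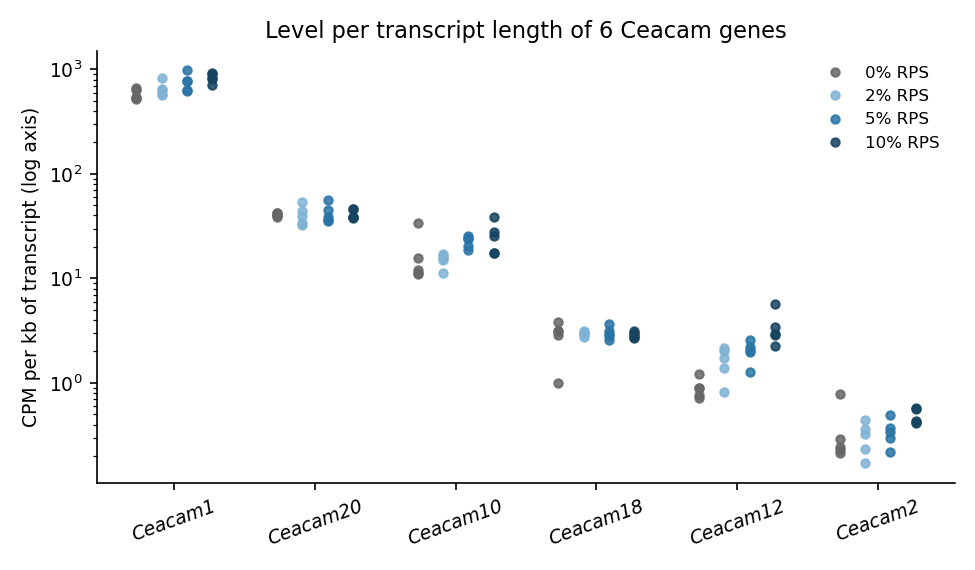
Level of the 6 Ceacam genes of the table in each of 20 libraries, as CPM per kilobase of canonical transcript on a log axis. Points are libraries and colours are diets. Ceacam1 lies above every other family gene, and Ceacam12 is the second lowest by its mean of 1.99.

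Ceacam12 was higher with starch in the diet. Its normalised counts (counts divided by the DESeq2 size factor) were 48.3, 28.1, 35.5, 35.0 and 30.1 in the 5 libraries on 0% RPS. They were 32.8, 82.9, 88.7, 55.6 and 72.2 on 2% RPS and 89.1, 107.6, 79.6, 84.8 and 51.4 on 5% RPS. On 10% RPS they were 118.9, 90.5, 145.3, 123.1 and 239.7. Thus 4 of 5 libraries on 2% RPS, and all libraries on 5 and 10% RPS, exceeded the highest library on 0% RPS. The mean was 35.4 ± 7.86 (SD, n = 5) on 0% RPS, 66.4 ± 22.6 on 2%, 82.5 ± 20.3 on 5% and 143 ± 57.2 on 10%. The ranges on 2% and 5% RPS overlapped, and so did those on 5% and 10% RPS. In the DESeq2 fit, the log2 fold change was 0.32 (SE 0.28) on 5% against 2% RPS. It was 0.80 (SE 0.27) on 10% against 5% RPS. The 10% group was the widest, because replicate 5 was well above the other 4 libraries.

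Ceacam1 was higher by a smaller factor, from a far higher level. Its normalised counts were 55168, 55522, 67818, 65037 and 52229.8 on 0% RPS. They were 59101, 67607, 66872, 60534 and 88410.4 on 2% RPS and 79617, 105435, 80829.8, 65817 and 66546 on 5% RPS. On 10% RPS they were 76485, 84163, 90456, 98388 and 99369. The ranges on 0% and 10% RPS did not overlap, whereas those on 2 and 5% RPS overlapped with 0%. The mean was 59155 ± 6832 (SD, n = 5) on 0% RPS, 68505 ± 11744 on 2%, 79649 ± 16042 on 5% and 89772 ± 9680.1 on 10%. Each neighbouring pair of diets overlapped in range.

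Ceacam20 showed no step between diets. Its normalised counts were 3098, 3229, 2969.9, 3162 and 3039.8 on 0% RPS. They were 2606, 2539.6, 4240.7, 3048 and 3492 on 2% RPS and 3009, 4543, 3496, 2825 and 2827 on 5% RPS. On 10% RPS they were 3641, 3565, 3087.5, 3095 and 3156. The ranges of all 4 diets overlapped. The 0% RPS libraries lay close together, with a coefficient of variation of 3.27%, whereas it was 22.1% on 2% RPS, 21.7% on 5% and 8.2% on 10%. The means were 3100 ± 101 (SD, n = 5) on 0% RPS and 3309 ± 271 on 10%.

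**Figure D2:**
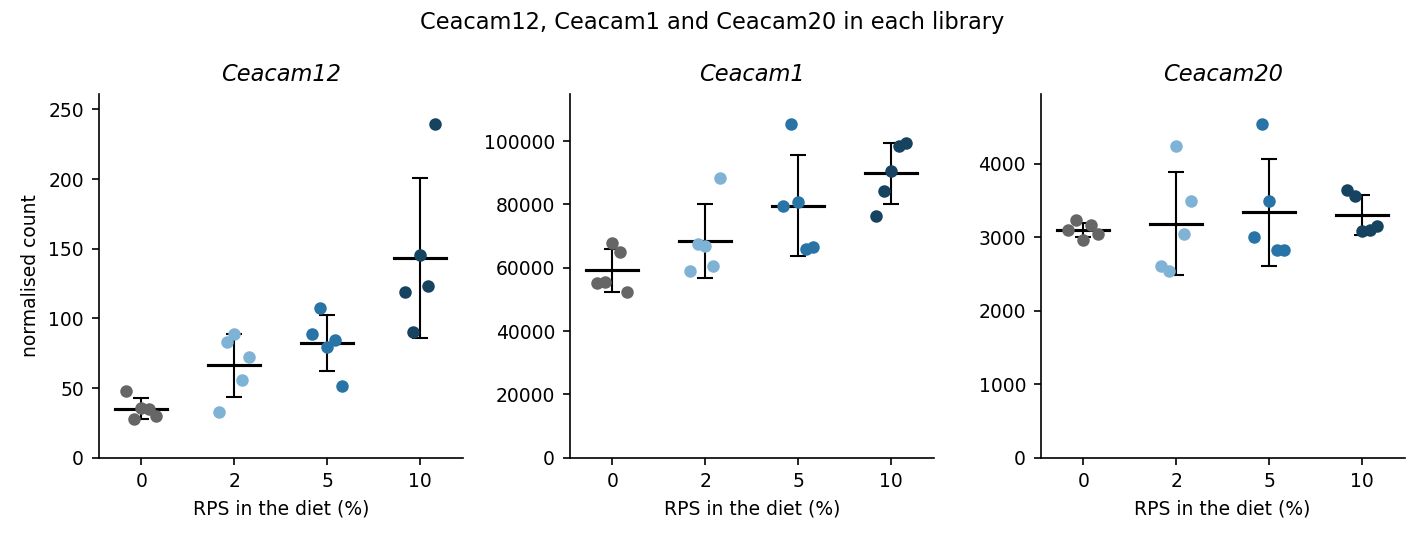
Normalised counts of Ceacam12, Ceacam1 and Ceacam20 (one panel each, y axes starting at 0) against the percentage of RPS in the diet. Points are libraries, long bars are means and whiskers are SD (n = 5). Ceacam12 reaches 239.7 on 10% RPS against at most 48.3 on 0%, Ceacam1 is above its 0% range in all 5 libraries on 10% RPS, and Ceacam20 overlaps throughout.

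The fold changes from the fit of all 12701 genes described the same levels. Here a gene counts as changed where its adjusted p is no more than 0.05 and its fold is at least 1.5. Ceacam12 had a log2 fold change of 0.91 (SE 0.29) on 2% RPS, 1.22 (SE 0.29) on 5% and 2.02 (SE 0.29) on 10%, compared with 0% RPS. Ceacam1 had 0.21, 0.43 and 0.60 (each SE 0.13), so that only the last lay above the fold threshold of 0.585. Ceacam20 had 0.04, 0.11 and 0.09 (each SE 0.14). Its 95% interval on 10% RPS ran from -0.17 to 0.36, which does not reach the fold threshold. The contrasts of the 3 starch levels share the 0% RPS libraries, so they are not separate evidence.

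None of the 3 members was counted as changed on 2% RPS, 1 (Ceacam12) was on 5% and 2 (Ceacam12 and Ceacam1) were on 10%. Of all genes tested, 0.0239% were counted on 2% RPS, 0.438% on 5% and 0.917% on 10%. Between starch levels, Ceacam12 was the only member counted, on 10% against 2% RPS with a log2 fold change of 1.11 (SE 0.28). That call was lost with edgeR and without the 3 libraries whose label numbers stand apart (0.86). Of the 7 fits that left out 1 library and gave the gene an adjusted p, it was kept in 2, and lost without 2% RPS replicate 2, 4 or 5 or 10% RPS replicate 4 or 5. The shares of all genes were 0.0557% on 10% against 2%, 0.00796% on 10% against 5%, and 0.0% on 5% against 2% RPS. In ranges, 1 member on 5% RPS and 2 on 10% lay wholly apart from 0%, and none did on 2%. Over all genes with counts this held for 0.74% on 2% RPS, 2.43% on 5% and 2.52% on 10%. Because the members were chosen on these contrasts, nothing is read from the counts against these shares.

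Across the 4 diets, the fitted slope of Ceacam12 was 0.18 log2 units per percent RPS (SE 0.03), and that of Ceacam1 was 0.06 (SE 0.01). Both were counted in the trend, in which 4.29% of all genes were. In a fit of the 3 starch diets without 0% RPS, the slope of Ceacam12 kept its call (0.14) and that of Ceacam1 lost it (0.05). The slope of Ceacam20 was 0.01 (SE 0.01) and was not counted. Over the span from 0 to 10% RPS, the fitted slopes amount to 1.81 log2 units for Ceacam12, 0.58 for Ceacam1 and 0.09 for Ceacam20.

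Alternative fits use the libraries by which the members were chosen, so they show dependence on settings and lend the changes no support. The call of Ceacam12 on 10% RPS was kept under each alternative run, whereas that of Ceacam1 was close to the fold threshold. Ceacam1 on 10% RPS fell below it without the 3 libraries whose label numbers stand apart (0.50), with an epithelium score in the fit (0.51), and with a smooth muscle score (0.55). It also fell below it when 0% RPS replicate 1 (0.57), 2 (0.58) or 5 (0.56), or 10% RPS replicate 4 (0.57) or 5 (0.57), was left out. The 3 libraries numbered apart, all on starch diets, held the top Ceacam1 values on 2% RPS (88410.4) and 10% RPS (98388 and 99369). The highest Ceacam12 value (239.7) was also among them. Ceacam12 on 5% RPS lost its call with edgeR (log2 fold change 1.22), with the epithelium score (1.02) and without 5% RPS replicate 2 (1.11).

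The other 3 family genes were not members and were tested over all genes with DESeq2. Ceacam10 encodes a secreted CEACAM and averaged 20 on the per-length scale above. Its normalised counts were 346, 969, 316, 445 and 314 on 0% RPS, in which replicate 2 was 2.73 times the mean of the other 4 libraries. On 5% RPS they were 544.8, 762.9, 703.1, 705.8 and 589.8, and on 10% RPS 527, 509, 843, 765 and 1172. With all libraries, Ceacam10 had a log2 fold change of 0.68 (SE 0.27) on 10% RPS, with an adjusted p of 0.126 (DESeq2). With the smooth muscle score in the fit it was 0.86 and was counted (DESeq2 adjusted p = 0.0186), whereas with the epithelium score it was 0.30 (DESeq2 adjusted p = 0.856). Its slope with percent RPS passed at an adjusted p of 0.0441 (DESeq2). It did not pass with edgeR (adjusted p = 0.109), and it passed in 4 of the 20 fits that left out 1 library.

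Ceacam2, the closest mouse paralog of Ceacam1, was the lowest of the 6 genes, with 17 to 74 counts. Its normalised counts on 0% RPS were 24.1, 77.1, 22.7, 28.7 and 20.7, in which replicate 2 was again the high library, at 3.2 times the mean of the others. On 10% RPS they were 44.9, 41.9, 45.3, 59.1 and 60.9, a log2 fold change of 0.54 (SE 0.34, DESeq2 adjusted p = 0.376). Ceacam18 went the other way in the same library. It stood at 86.4 in 0% RPS replicate 2 against 249 to 326 in the other 4 libraries on 0% RPS. On 10% RPS it was 247 to 277 (log2 fold change 0.13, SE 0.21, DESeq2 adjusted p = 0.778).

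The members did not stand apart in 0% RPS replicate 2. Ceacam12 was 28.1 there against 30.1 to 48.3 in the other 4 libraries, Ceacam1 was within their range, and Ceacam20 was 3229 against 2969.9 to 3162. The library was also high in B and plasma cell markers, with a mean log2 level of 7.42 against 5.40 to 5.97 in the others. Its smooth muscle score was 14.6 against 13.4 to 13.9, its myeloid score 8.70 against 7.93 to 8.25, and its endothelium score 9.06 against 8.65 to 8.86. The part of these cell types in the levels of Ceacam10, Ceacam2 and Ceacam18 was not tested.

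**Figure D3:**
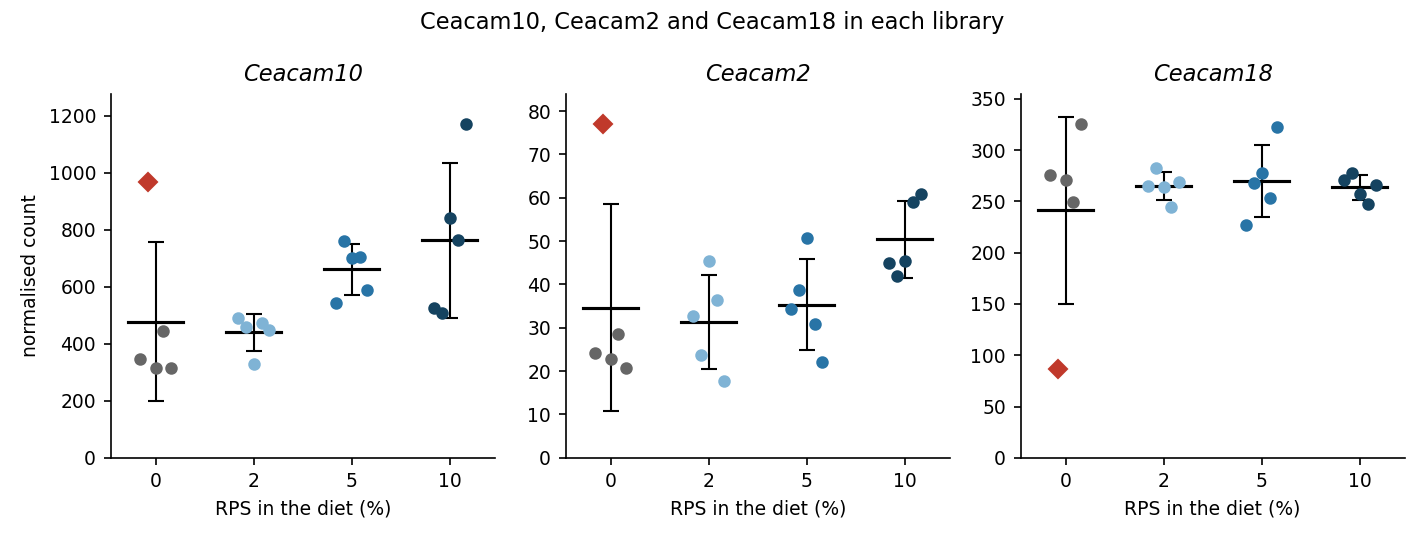
Normalised counts of Ceacam10, Ceacam2 and Ceacam18 (one panel each, y axes starting at 0) against the percentage of RPS. Points are libraries, long bars are means and whiskers are SD (n = 5), and the red diamond is 0% RPS replicate 2. That library is the highest on 0% RPS for Ceacam10 (969) and Ceacam2 (77.1) and the lowest for Ceacam18 (86.4).

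Leaving out 0% RPS replicate 2, a choice stressed here after its values were seen, changed 3 calls of these genes in the contrasts with 0% RPS. Ceacam10 then had a log2 fold change of 0.90 (SE 0.20) on 5% RPS and 1.10 (SE 0.20) on 10%, with DESeq2 adjusted p of 0.00242 and 2.2e-05. All 5 libraries on 5% and all 5 on 10% RPS were above the highest of the remaining 4 libraries on 0%. Ceacam2 had 1.06 (SE 0.28) on 10% RPS, with a DESeq2 adjusted p of 0.00565, and all 5 libraries were above the remaining 0% libraries. Its slope also passed (0.10 per percent RPS, DESeq2 adjusted p = 0.00253), and that of Ceacam10 became 0.11 (DESeq2 adjusted p = 1.34e-05). Without that library, 0.844% of all genes were counted on 5% RPS, 1.63% on 10% and 6.43% in the trend. Ceacam18 stayed uncounted and its log2 fold change turned from 0.13 to -0.08 on 10% RPS. With or without the library, the values for Ceacam12 (2.02 and 1.95), Ceacam1 (0.60 and 0.58) and Ceacam20 (0.09 and 0.11) moved little. Ceacam1 nevertheless fell below the fold threshold without it and lost its call on 10% RPS.

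**Figure D4:**
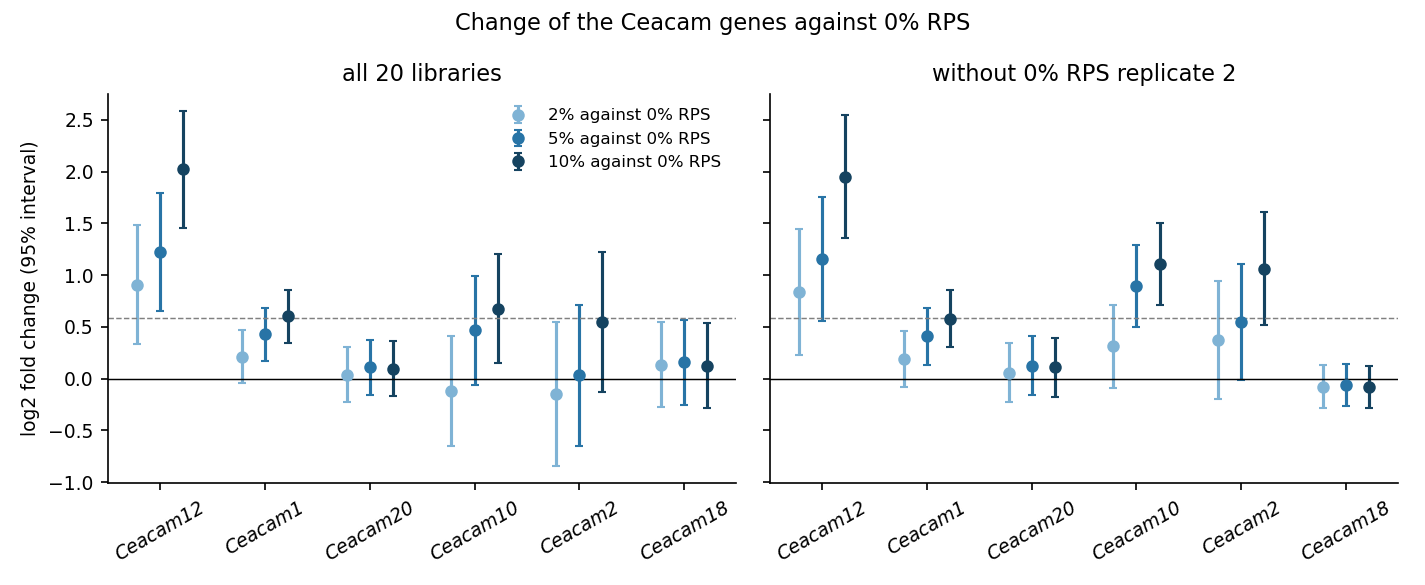
Log2 fold change of 6 Ceacam genes on 2, 5 and 10% RPS against 0% RPS, with all 20 libraries (left) and without 0% RPS replicate 2 (right). Points are DESeq2 estimates, bars are 95% intervals and the dashed line is the fold threshold of 1.5. Ceacam10 on 10% RPS moves from 0.68 to 1.10 and Ceacam2 from 0.54 to 1.06, whereas Ceacam12 stays near 2.

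Sequence shared between genes limits some of these counts. Of the 50-base windows (the read length) in the Ceacam1 transcripts, 24.1% also occurred in Ceacam2 and 0.619% in Ceacam10. In the other direction, 45.6% of Ceacam2 windows occurred in Ceacam1. Since Ceacam1 had 50289 to 108768 counts and Ceacam2 at most 74, Ceacam2 counts that come from Ceacam1 reads cannot be told apart, as the handling of reads with several matches was not stated. Ceacam12 shared 5.32% of its windows with a gene on the opposite strand (Gm44613), and Ceacam20 shared 1.89% with other genes. Ceacam18 shared 49% with Siglece on the opposite strand. The libraries were stranded, but the use of strand in counting was not stated, so Ceacam18 and Siglece reads may be mixed.

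The members were chosen on differences between diets. The spread of each gene within a diet enters the fit of those differences, but relations between genes within a diet do not. Such relations were therefore tested. The diet mean was subtracted from log2(normalised count + 1), and libraries were permuted within diets (100000 resamples, two-sided). Ceacam12 and Ceacam1 had a within-diet Pearson r of 0.52 (n = 20, permutation p = 0.0332, adjusted over 3 pairs 0.0995). Their Spearman rho was 0.54 (permutation p = 0.0221, adjusted 0.0662). The relation did not pass the adjustment, and r was 0.49 (permutation p = 0.0783) without the 2 libraries farthest from the Ceacam12 median. Ceacam1 and Ceacam20 had r of 0.46 (permutation p = 0.117, adjusted 0.176) and rho of 0.33 (permutation p = 0.216, adjusted 0.325), and r was 0.22 without the 2 farthest libraries. Ceacam12 and Ceacam20 had r of 0.32 (permutation p = 0.253, adjusted 0.253) and rho of 0.15 (permutation p = 0.565, adjusted 0.565), and r was 0.45 without the 2 farthest. All 3 coefficients were positive, and none passed an adjusted p of 0.05. Without 2% RPS replicate 5, r of Ceacam12 and Ceacam1 was 0.54 and passed.

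The larger family coefficients rested on 1 library. Described without a test, Ceacam10 and Ceacam2 had a within-diet r of 0.63 over 20 libraries and 0.24 without 0% RPS replicate 2. Ceacam10 and Ceacam18 had -0.73 and -0.21, and Ceacam2 and Ceacam18 had -0.77 and -0.44. Among the members, the same omission moved r by little, from 0.52 to 0.51 for Ceacam12 and Ceacam1.

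**Figure D5:**
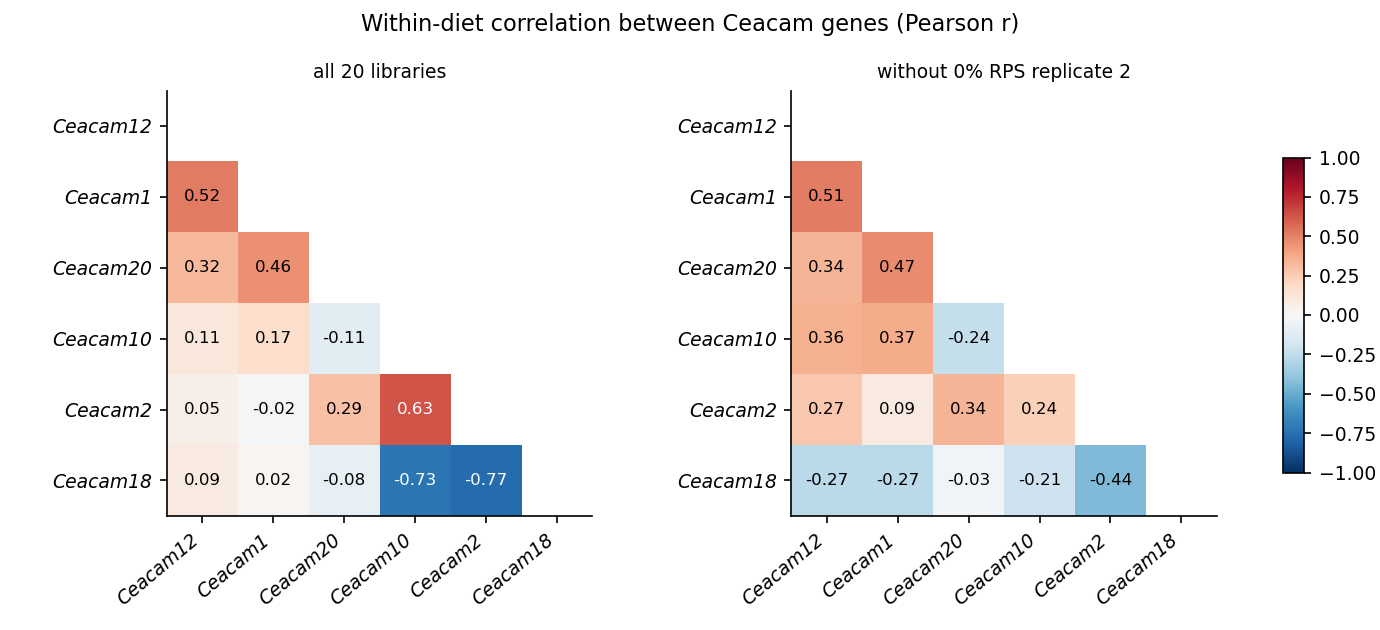
Pearson r between the 6 Ceacam genes after the diet mean was subtracted from log2(normalised count + 1), for all 20 libraries (left) and 19 libraries without 0% RPS replicate 2 (right). Red is positive and blue is negative. The 3 member pairs (0.32 to 0.52) change little, and the 3 strong values among Ceacam10, Ceacam2 and Ceacam18 shrink.

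Cell type markers were examined beside the members, since these genes are known from epithelial cells. Markers of epithelium (8 of 8 listed genes in the table), mature colonocytes (7 of 7, Ceacam20 left out) and goblet cells (8 of 8) were all present, as were those of smooth muscle (8 of 8) and endothelium (8 of 8). The T cell list rested on 1 marker, Gzma, of 8. The B and plasma cell list had 5 of 8 in the table and the myeloid list 6 of 8. No listed marker in the table was at 0 in every library.

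The epithelium score (mean log2 level of its markers) was 0.17 higher on 2% RPS, 0.19 on 5% and 0.20 on 10% than on 0% RPS. The exact permutation test, two-sided and adjusted over 24 tests, gave adjusted p of 0.309, 0.0635 and 0.127. The goblet cell score was 0.27, 0.45 and 0.43 higher (adjusted exact p = 0.508, 0.0635 and 0.0635), and its ranges on 5 and 10% RPS lay above that on 0%. The mature colonocyte score differed by 0.04, -0.04 and 0.14 (adjusted exact p = 0.933, 0.943 and 0.852). The endothelium score was lower by 0.17, 0.19 and 0.22 (adjusted exact p = 0.19, 0.127 and 0.127). No score passed, 6 of the 24 tests had an unadjusted p under 0.05, and the smallest unadjusted p that 5 against 5 libraries allow is 0.00794. Epithelium on 5% RPS and goblet cell on 5 and 10% RPS stood at that smallest exact p. The adjustment over 24 tests kept even these from passing, so the lack of a pass says little. The epithelium scores on 5% RPS (from 14.95) also lay above those on 0% RPS (up to 14.92). Without 0% RPS replicate 3, 2% RPS replicate 3 or 10% RPS replicate 2, 4 of the 24 tests passed, all of epithelium, goblet cell or endothelium scores. The summed epithelium markers were 291626 to 356977 normalised counts on 0% RPS and 321290 to 420590 on 10%. With the epithelium score in the fit, Ceacam12 on 10% RPS had a log2 fold change of 1.75 and Ceacam1 of 0.51. The part of epithelial content in the members' rise was otherwise not tested.

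Between libraries of 1 diet, no member passed in its relation to a cell type score, over 24 relations adjusted together, and 3 had an unadjusted p under 0.05. The strongest was Ceacam20 with the goblet cell score, with a Pearson r of -0.71 (n = 20, permutation p = 0.00252, adjusted 0.0605) and a Spearman rho of -0.57 (permutation p = 0.021, adjusted 0.505). Without the 2 libraries farthest from the Ceacam20 median, r was -0.50 (permutation p = 0.0671). The relation passed the adjustment without 0% RPS replicate 2 or 5, 2% RPS replicate 5 or 5% RPS replicate 4. Ceacam1 had r of -0.54 with endothelium (permutation p = 0.0151, adjusted 0.181) and -0.47 with smooth muscle (permutation p = 0.0472, adjusted 0.378). Ceacam1 and the epithelium score had r of 0.24 (permutation p = 0.321, adjusted 0.752). Ceacam12 had r of 0.26 with epithelium (permutation p = 0.351, adjusted 0.752). Ceacam20 and the mature colonocyte score had r of 0.25 (permutation p = 0.204, adjusted 0.745).

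The list of genes known to act with CEACAM proteins held none that was counted as changed. Of 14 partner genes in the table (16 listed: phosphatases, kinases, receptors and scaffold proteins), 0 were counted as changed by DESeq2 or by edgeR. This held in every contrast and in the trend. Over all genes, DESeq2 counted 0.917% on 10% RPS and 4.29% in the trend. With edgeR, 40 and 165 of 12366 genes were counted. A count of 0 of 14 is near these shares. At an unadjusted p under 0.05, 1 of the 14 passed in DESeq2 on 10% RPS and 2 did in the trend. Of all 12701 genes, 2365 did so on 10% RPS and 2397 in the trend. The median log2 fold change of the 14 on 10% RPS was 0.06, beside 0.0 for all genes. Among the smallest adjusted p on 10% RPS were those of Ptpn6 (log2 fold change -0.14, SE 0.07, DESeq2 adjusted p = 0.26) and Ctnnb1, which encodes beta-catenin (0.10, SE 0.06, 0.316). Of 9 transcription factors known to act on CEACAM promoters, 0 were counted as changed by DESeq2 or edgeR. On 10% RPS, 1 of the 9 had an unadjusted DESeq2 p under 0.05. Neither count stands out beside the same shares of all genes. Irf1, an interferon regulatory factor, had 0.28 (SE 0.10, DESeq2 adjusted p = 0.0857) on 10% RPS. Ppara had -0.44 (SE 0.23, DESeq2 adjusted p = 0.291) and was counted as lower only without 0% RPS replicate 2. Cdx2, an intestinal homeobox factor, had 0.09 (SE 0.09, DESeq2 adjusted p = 0.609).

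Genes of the brush border, the layer of microvilli in which the Ceacam20 protein sits, moved in both directions in the trend. Of 12 in the table, 0 were counted in a contrast with the fold threshold by DESeq2 or edgeR. On 10% RPS, DESeq2 counted 0.917% of all genes and edgeR 40 of 12366. There, 6 of the 12 had an unadjusted DESeq2 p under 0.05, beside 2365 of all 12701 genes. In the trend 3 rose and 1 fell with DESeq2, beside 4.29% of all genes counted in either direction. With edgeR 2 passed, beside 165 of 12366 genes. Ezr, which encodes the membrane to actin linker ezrin, had a log2 fold change of 0.44 (SE 0.09) on 10% RPS and a trend adjusted p of 0.00086 (DESeq2). Pls1, an actin bundling protein, had 0.25 (SE 0.07) and 0.00666, and Eps8, an actin capping protein, had 0.26 (SE 0.10) and 0.0439. Myo1a, a brush border myosin, had -0.37 (SE 0.13) and a trend adjusted p of 0.0425. The median log2 fold change of the list on 10% RPS was 0.16.

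Of all genes, 4.29% were counted in the trend with DESeq2, and 165 of 12366 with edgeR. Of the cell type markers, 4 were counted there with DESeq2 and 0 with edgeR. The 4 were 1 each of 8 epithelium, 7 mature colonocyte, 8 goblet cell and 8 endothelium markers. Epcam (0.19 on 10% RPS, SE 0.05, DESeq2 trend adjusted p = 0.023), the colonocyte carbonic anhydrase Car4 (0.31, SE 0.12, 0.0329) and Agr2, a goblet cell disulfide isomerase (0.52, SE 0.18, 0.0358), rose. Egfl7, an endothelial secreted factor, fell (-0.29, SE 0.10, 0.0273). On 10% RPS without a fold threshold, Krt20, a keratin of surface cells, had 0.47 (SE 0.13, DESeq2 adjusted p = 0.0193), Spdef, a goblet cell transcription factor, 0.46 (SE 0.15, 0.0493), and Tek, an endothelial receptor, -0.38 (SE 0.11, 0.018). None of the 3 reached the fold threshold of 1.5. Without 0% RPS replicate 2, 3 goblet cell genes (Muc2, Spdef and Agr2) and the B cell marker Cd79a were counted on 10% RPS. In the trend, 4 goblet cell genes (Muc2, Clca1, Spdef and Agr2) then passed. Brush border genes that then passed were again 4, with Ush1c, a scaffold protein gene, in place of Eps8. Of all genes, 1.63% were counted on 10% RPS and 6.43% in the trend without that library. Muc2 and Ush1c are named after their values were seen.

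The genes whose levels ran most like each member over the 20 libraries were named as a description, with no test, among the 12335 other genes whose normalised counts averaged 10 or more. The libraries share diets, so these coefficients include the differences between diets. For Ceacam12, 4 of the 5 closest were Chrnb4, a nicotinic receptor subunit (Pearson r 0.87), Fam3c (0.87), Lpo, which encodes lactoperoxidase (0.86), and 1110059E24Rik (0.85). With the diet means removed, the coefficients of these 4 were 0.46 to 0.64. For Ceacam1 the 5 closest were Ptp4a2 (0.92), Cltc, the clathrin heavy chain (0.92), Hook1 (0.90), Actr2, a subunit of the actin nucleating Arp complex (0.90), and Pdcd10 (0.89). Their within-diet coefficients were 0.78 to 0.86, so most of this likeness was also present between libraries of 1 diet.

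For Ceacam20 the closest genes were Nlrp9b, an intestinal inflammasome sensor (0.75), Ptpn12 (0.74), Tm4sf20 (0.73), Traf6 (0.71) and Ap1b1 (0.71). Their within-diet coefficients were 0.70 to 0.81. No member was among the 5 closest genes of another. Ceacam1 ranked 17th in likeness to Ceacam12 (r 0.82), and Ceacam12 ranked 40th in likeness to Ceacam1. Ceacam20 ranked 2777th for Ceacam12 (0.31) and 2011th for Ceacam1 (0.44). Ceacam10, whose upstream window was nearly that of Ceacam1, ranked 1149th in likeness to Ceacam1 (0.55).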

How the data were processed

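RNA of the PC, 5 libraries on each of 4 diets, was sequenced from one end to 50 bases with a stranded mRNA kit. Per the study, the authors trimmed bases under Q30, dropped reads holding over 2 ambiguous bases, and did alignment and counting with CLC Genomics Workbench (version 20.01) on GRCm39. The deposited values are raw counts per Ensembl gene, neither normalised nor pooled. The annotation, the use of strand and the handling of reads with several matches were not given in the sources used here. Of 12701 gene IDs, 12682 were found in GENCODE M39, and 125 genes had 0 counts throughout.

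Diets were taken from the labels. The members and gene lists were chosen with earlier results of these data known. As in the study, DESeq2 (version 1.42.0, R version 4.3.3) was fitted to all genes and all 20 libraries with diet as the term, or with percent RPS as a number for the trend. Adjusted p values are Benjamini-Hochberg over all genes. A gene was called at 0.05 and a fold of 1.5 (no fold threshold in the trend). The tests were checked on simulated counts. Scores and correlations used log2(normalised count + 1). Named were the 3 members, the other family genes, of each list the genes called and up to 3 with the smallest adjusted p on 10% RPS, and for each member the 5 most similar genes. Of the genes so named, 2 are not reported here.

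Alternatives were edgeR (version 4.0.16, quasi-likelihood test), TMM factors, a filter of 10 counts in 5 libraries, independent or Cook filtering off, no fold threshold or 2, only the 2 diets compared, an epithelium or smooth muscle score as covariate, the fit without the 3 libraries numbered apart from the other 17, and the fit without each library. Permutation tests, motif searches and figures used Python (version 3.11.15) with numpy (version 2.4.6), pandas (version 2.3.3), scipy (version 1.17.1) and matplotlib (version 3.10.9). The floor of 3 counts covers counting error only. Intervals come from the SE of the DESeq2 fit, which includes the spread between libraries.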

Additional observations from a re-analysis of the deposited data

Results flagged for a closer look

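In 56 groups of 5 libraries (24 for gene levels and 32 for cell type scores), 6 had 1 library whose gap to its nearest neighbour was more than 0.71 of the whole range, a limit that chance passes in about 1 in 20 groups. None of these was a level of Ceacam12, Ceacam1 or Ceacam20. Ceacam10 was 969 normalised counts in 0% RPS replicate 2, against 445 in the next library. Ceacam2 was 77.1 in the same library, against 28.7 in the next. The B and plasma cell score of that library was 7.42, against 5.97. In 2% RPS replicate 3, Ceacam10 was low at 328 normalised counts, against 450.0 in the next library, and the B and plasma cell score was low at 5.56, against 6.24. The T cell score, which rests on Gzma alone, was 4.30 in 5% RPS replicate 4, against 5.04 in the next library.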

How the results depend on the processing

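The number of the 6 family genes counted as changed was 1 on 5% RPS and 2 on 10% RPS against 0%, and 1 on 10% against 2% RPS. On 5% RPS it became 0 with edgeR or with the epithelium score. On 10% RPS it became 1 (Ceacam12 alone) with a fold threshold of 2, without the 3 libraries numbered apart, or with the epithelium score. With the smooth muscle score it stayed at 2, with Ceacam10 in place of Ceacam1. With a fit of only the 2 diets it became 1 on 5% against 2% RPS (Ceacam10), where it had been 0, and 2 on 10% against 2% RPS, where it was 0 with edgeR or without the 3 libraries. Leaving out 1 library gave 0 to 2 genes on 5% RPS, 1 to 3 on 10% RPS, and 0 to 1 on 10% against 2% RPS. DESeq2 gave Ceacam12 no adjusted p on 5% RPS without 5% RPS replicate 4. It gave none on 10% against 2% RPS with TMM factors, with the epithelium score, or without 2% RPS replicate 1 or 10% RPS replicate 2 or 3. The cause of these shifts was not tested.

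Log2 fold changes that turned in sign were of genes and contrasts without a call. Without the 3 libraries, Ceacam20 on 10% against 5% RPS became 0.0383, and without the 0% RPS diet the Ceacam18 slope became -0.0013. Leaving out 1 library gave Ceacam20 -0.0851 to 0.11 on 2% RPS, -0.0285 to 0.16 on 5% RPS, -0.0681 to 0.19 on 5% against 2%, -0.0164 to 0.18 on 10% against 2%, and -0.0683 to 0.12 on 10% against 5%. It gave Ceacam2 -0.13 to 0.55 on 5% RPS. It gave Ceacam18 -0.0584 to 0.29 on 5% RPS, -0.0831 to 0.26 on 10% RPS, and -0.0057 to 0.0168 for its slope. Ceacam12 on 10% RPS kept its call, from 1.74 to 2.15, in all settings run. All of these refit the libraries by which Ceacam12 was chosen.

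Leaving out 1 library gave the within-diet r of Ceacam12 and Ceacam1 0.46 to 0.58. Of the 24 relations with cell type scores, 0 to 3 then passed, and 1 did without the 3 libraries (both chosen after seeing the data). Of the 24 score comparisons, 0 to 4 passed when 1 library was left out. Of the 5 genes most like each member, 3 for Ceacam12, 4 for Ceacam1 and 0 for Ceacam20 were the same by Spearman rho, and 0, 1 and 4 with diet means removed. No paired analysis was possible because the libraries carry no numbers in common across diets. Depth limits Ceacam12 and Ceacam2, whose lowest libraries had 27 and 17 counts.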
